A study of Mus musculus with 6 samples.

Results

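The mitochondrial genome carries 13 protein-coding genes, and 10 of them are described here across 6 RNA-sequencing libraries of mouse bone marrow. The members are mt-Nd1, mt-Nd2, mt-Nd4, mt-Nd5, mt-Co1, mt-Co2, mt-Co3, mt-Cytb, mt-Atp6 and mt-Atp8. They were chosen by gene name from a table of 55487 genes, with the requirement that the listed locus lie on the mitochondrial chromosome (MT), and all 10 were found and passed the filter on low counts. The rule used names and loci alone, but the members were chosen with earlier results of these data known.

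The libraries came from LSK cells, the lineage-negative, Sca-1-positive, Kit-positive fraction of bone marrow in which stem cells and early progenitors of blood are found. Mice lacking the melanocortin 5 receptor (Mc5r-null) gave 3 of the libraries, and littermates of wild-type genotype gave the other 3. All mice had been irradiated, but the sources used here state no dose, time or age. Unirradiated cells were not analysed, which leaves genotype as the one contrast. The labels say neither which mouse each library came from nor whether mice were pooled, so the SDs and p-values below are those of libraries and may reflect technical spread alone. The labels do not describe the null allele, and nothing in them limits the loss of the receptor to blood cells.

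The respiratory chain of the inner mitochondrial membrane passes electrons through complexes I to IV and pumps protons, and complex V, the ATP synthase, uses the gradient to make ATP. Most subunits are nuclear genes, but the catalytic or proton-conducting core of complexes I, III, IV and V is partly encoded in mitochondrial DNA, whereas complex II is nuclear in full. Mitochondrial DNA is transcribed as long polycistronic RNAs that are cut largely at the tRNAs between genes, so that the level of each mature mRNA depends on processing, polyadenylation and decay as well as on transcription. Haematopoietic stem cells are known for a low reliance on respiration, which increases as they differentiate.

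The members lie on the plus strand of MT (GRCm38) with tRNAs and other genes between some of them, and some adjacent genes share bases, which bears on how reads are assigned. mt-Atp8 (MT:7766-7969) overlaps mt-Atp6 (MT:7927-8607) by 43 bases, and mt-Nd4 (MT:10167-11544) overlaps mt-Nd4l by 7 bases. The 3′ ends of the upstream partners are shown 5′ to 3′, with the bases shared with the next gene in capitals.
mt-Atp8, MT:7910-7969: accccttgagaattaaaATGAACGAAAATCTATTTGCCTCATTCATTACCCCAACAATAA
mt-Nd4l, MT:10144-10173: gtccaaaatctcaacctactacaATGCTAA
In each, the capitals start with the ATG of the downstream gene and end with the stop codon of the upstream one.

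Of the 10 members, 3 are annotated as ending on a bare T instead of a full stop codon. The rest of that codon is known to be added by the poly(A) tail. The 3 were mt-Nd4, mt-Co3 and mt-Cytb, with 1 base left over after 459, 261 and 381 whole codons. Their last 21 bases are shown with those of mt-Nd2 and mt-Nd5, which are annotated with a full stop, and the stop letters are in capitals.
mt-Nd4, MT:11524-11544: taattacaggcctgacaataT
mt-Co3, MT:9370-9390: ccatttattgatgaggatctT
mt-Cytb, MT:15268-15288: aaatactaaaattatatccaT
mt-Nd2, MT:4931-4951: gccccccaactaattaccTAG
mt-Nd5, MT:13545-13565: tactcaattaatctcgagTAA
The libraries were made from poly(A)-selected RNA, so each level below is that of tailed RNA. Of the genes annotated with a bare T, mt-Nd4 rose, mt-Cytb fell and mt-Co3 passed in neither direction. That grouping rests on annotated ends. The ends of mt-Nd2 (MT:4951) and mt-Nd1 (MT:3707) overlap the plus-strand tRNA genes mt-Tw (from MT:4950) and mt-Ti (from MT:3706). A cut at the start of those tRNAs would leave both mRNAs on a bare T too, and where each mRNA ends was not tested.

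Gene counts summed to between 13983016 and 14076870 in the Mc5r-null libraries and between 14903723 and 14953169 in wild type. Mc5r, the check of the labels, had 0, 0 and 1 counts in the Mc5r-null libraries and 181, 157 and 198 in wild type. All 13 fixed LSK markers were detected, among them Kit at 256 ± 5.21 CPM (counts scaled by the library total) in Mc5r-null and 241 ± 2.95 CPM in wild type (SD, n = 3 each). Immunoglobulin genes held 6.86% to 6.96% of Mc5r-null counts and 2.14% to 2.15% of wild-type counts, which lowers the share left for every other gene in the Mc5r-null libraries.

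As a whole, the members took up a part of the RNA that differed between genotypes by a few hundredths of a percentage point. Together they held 2.49%, 2.45% and 2.44% of all counts in the Mc5r-null libraries and 2.54%, 2.52% and 2.48% in wild type. The means were 2.46 ± 0.0229% and 2.51 ± 0.0289% (SD, n = 3 each), a ratio of 0.979, and the groups overlapped (exact two-sided permutation p = 0.2, where 0.1 is the smallest that 3 against 3 libraries can give). The direction turned with immunoglobulin counts left out of the totals, at 2.64% in Mc5r-null and 2.57% in wild type, a ratio of 1.03 (exact permutation p = 0.1). With the chromosome 1 nuclear copies, described below, added to the members, the groups were apart, at 2.68% in Mc5r-null and 2.73% in wild type, a ratio of 0.982 (exact permutation p = 0.1). All mitochondrial genes together were apart too, at 2.62% in Mc5r-null and 2.69% in wild type, a ratio of 0.975 (exact permutation p = 0.1).

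Within that sum, individual members moved in opposite directions by small, precisely measured amounts. In edgeR's quasi-likelihood test with Benjamini-Hochberg adjustment over all genes, 2 members rose, 4 fell and 4 did not pass an adjusted p of 0.05. That is 60% of the members, beside 32.9% of the 15257 genes tested (16.8% higher and 16.1% lower). The counts behind each member ran from 8486 to 147372 per library, and the standard errors of the log2 fold changes from 0.0094 to 0.042. The median size of change, regardless of direction, was 0.049 on the log2 scale for the members, against 0.18 for all genes tested and 0.36 for all genes called. DESeq2 called 3 of the 10 members, mt-Atp6 as higher and mt-Nd2 and mt-Nd5 as lower, beside 20.3% of genes in that fit. No member changed by as much as 1.2-fold.

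The complex I members encode core subunits of the membrane arm of NADH dehydrogenase, where protons are pumped. mt-Nd2 had 582, 588 and 595 FPKM (counts scaled by gene length and library total, as deposited) in the Mc5r-null libraries, against 671, 673 and 668 FPKM in wild type. Every Mc5r-null library was below every wild-type one, and mt-Nd2 fell by 0.15 ± 0.016 on the log2 scale (log2 fold change ± SE; edgeR adjusted p = 1.86e-04), a change of -10.2% with a 95% interval of -12.5% to -7.84%.

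mt-Nd5 had 700.4, 696 and 713.5 FPKM in the Mc5r-null libraries, against 785, 792 and 789.6 FPKM in wild type. The groups were again apart, and mt-Nd5 fell by 0.13 ± 0.014 on the log2 scale (edgeR adjusted p = 1.74e-04), a change of -8.74% (95% interval -10.7% to -6.75%). mt-Nd4, whose product is another proton-pumping subunit, went the other way. It had 1131, 1096 and 1084 FPKM in the Mc5r-null libraries, against 1069.6, 1055 and 1022 FPKM in wild type. The groups did not overlap, and mt-Nd4 rose by 0.11 ± 0.023 on the log2 scale (edgeR adjusted p = 0.00767), or 7.72% (95% interval 3.88% to 11.7%). DESeq2 gave the same direction for mt-Nd4 without the call (adjusted p = 0.0970).

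mt-Nd1, whose product sits where the membrane arm meets the quinone site, had 1331, 1337 and 1350.5 FPKM in the Mc5r-null libraries, against 1423, 1412 and 1411 FPKM in wild type. By FPKM, whose library totals include the immunoglobulin counts, its groups were apart. In the TMM-scaled fit it fell by 0.05 ± 0.013 on the log2 scale (edgeR adjusted p = 0.0279). That call was lost without Mc5r-null replicate 1, 2 or 3 or wild-type replicate 1 (edgeR adjusted p = 0.0741, 0.0613, 0.0579 and 0.0717), without immunoglobulin genes (0.0534), with the replicate block (0.0599) and with DESeq2 (adjusted p = 0.525). Within complex I the ratio of mt-Nd4 to mt-Nd5 FPKM was 1.57 ± 0.0476 in Mc5r-null and 1.33 ± 0.0344 in wild type (SD, n = 3 each; exact two-sided permutation p = 0.1, adjusted over 5 ratios 0.125), with no overlap between the groups.

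mt-Cytb, the only mitochondrial subunit of complex III and the one that holds its haem b groups, had 1799.6, 1799 and 1835 FPKM in the Mc5r-null libraries, against 1906, 1914 and 1909 FPKM in wild type. The groups were apart on this scale, whose library totals include the immunoglobulin counts. In the TMM-scaled fit mt-Cytb fell by 0.04 ± 0.012 on the log2 scale (edgeR adjusted p = 0.0247), a change of -2.93%. The call was lost without Mc5r-null replicate 1 or 2 or wild-type replicate 2 (edgeR adjusted p = 0.0664, 0.0725 and 0.0543), without immunoglobulin genes (0.0522) and with DESeq2 (adjusted p = 0.548).

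None of the complex IV members, which encode the catalytic core of cytochrome c oxidase, passed the test in edgeR, DESeq2 or limma-voom, and 1 of them, mt-Co1, had an unadjusted p under 0.05 in edgeR. mt-Co1, which carries the site where oxygen is reduced, was the most abundant member, with 6158, 6089 and 6105 FPKM in the Mc5r-null libraries, against 6369, 6389 and 6312 FPKM in wild type. On this scale, which uses library totals, the groups were apart. In the TMM-scaled fit the log2 fold change was -0.02 ± 0.0094 (edgeR adjusted p = 0.114). mt-Co1 passed as lower when libraries were scaled by their totals alone (edgeR adjusted p = 0.0022), with upper-quartile scaling (0.0450) and with the counts of its nuclear copies added (0.0303).

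mt-Co2, which takes electrons from cytochrome c, had 3434.5, 3408 and 3312 FPKM in the Mc5r-null libraries, against 3521, 3501 and 3405 FPKM in wild type. mt-Co3, a structural partner in the core, had 2904, 2819 and 2800.5 FPKM in the Mc5r-null libraries, against 2945, 2889 and 2846 FPKM in wild type. Both pairs of groups overlapped. The log2 fold changes were -0.0045 for mt-Co2 (edgeR adjusted p = 0.889) and 0.0075 for mt-Co3 (0.803), and the sign turned for mt-Co2 without immunoglobulin genes (0.0031) and for mt-Co3 with library totals alone (-0.03).

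Complex V held the largest change of any member. mt-Atp6, subunit a of the proton channel, had 4557, 4456 and 4354 FPKM in the Mc5r-null libraries, against 4173, 4057.5 and 3899 FPKM in wild type. The lowest Mc5r-null library was above the highest wild-type one, and mt-Atp6 rose by 0.17 ± 0.030 on the log2 scale (edgeR adjusted p = 0.00576), or 12.8% (95% interval 7.30% to 18.6%). DESeq2 also called it (adjusted p = 0.00582).

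mt-Atp8, a small membrane subunit read from the same transcript, had 4209, 3941 and 3853 FPKM in the Mc5r-null libraries, against 4106, 3926 and 3819 FPKM in wild type. The groups overlapped almost fully, and its log2 fold change was 0.05 ± 0.042 (edgeR adjusted p = 0.398). Each Mc5r-null library was above the wild-type one of the same replicate number. With the replicate block the log2 fold change was 0.05 ± 0.016, still without a call (edgeR adjusted p = 0.0589). The ratio of mt-Atp6 to mt-Atp8 FPKM was 1.08, 1.13 and 1.13 in the Mc5r-null libraries and 1.02, 1.03 and 1.02 in wild type (exact two-sided permutation p = 0.1, adjusted over 5 ratios 0.125). Reads in the 43 shared bases match both genes, and no source used here states how they were counted.

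**Figure D1:**
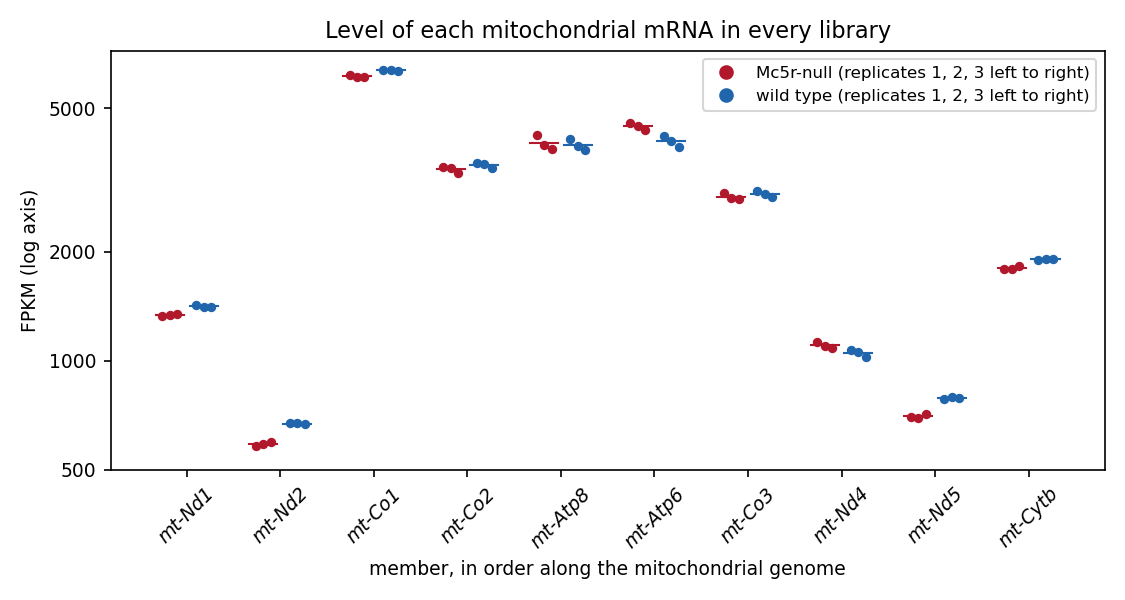
Deposited FPKM (log axis) of the 10 members in each library, with Mc5r-null in red left of wild type in blue; points are libraries and bars are means of 3. The order of levels is alike in both genotypes, mt-Atp6 and mt-Nd4 are higher in every Mc5r-null library, and mt-Nd2 and mt-Nd5 are lower in every one.

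By FPKM, a level per length, the order of the members was the same in both genotypes. From high to low it ran mt-Co1, mt-Atp6, mt-Atp8, mt-Co2, mt-Co3, mt-Cytb, mt-Nd1, mt-Nd4, mt-Nd5 and mt-Nd2. The highest mean was 10.4 times the lowest in Mc5r-null and 9.48 times in wild type. The libraries of neighbours in this order overlapped for 1 pair, mt-Atp6 and mt-Atp8, and there in wild type alone. The genes of complexes IV and V stood above those of complexes III and I, and all of them are encoded on the same strand.

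As parts of the summed member counts, 7 of the 10 members had groups that did not overlap. mt-Atp6 held 12.3 ± 0.179% of member counts in Mc5r-null and 10.9 ± 0.251% in wild type (SD, n = 3 each), a gain of 1.38 percentage points that was the largest of all. mt-Nd4 held 6.18% in Mc5r-null and 5.75% in wild type. mt-Co1 held 38.4% in Mc5r-null and 39.1% in wild type, mt-Nd5 5.21% and 5.72%, and mt-Nd2 2.48% and 2.77%. mt-Cytb and mt-Nd1 were the other 2, both with smaller shares in Mc5r-null. For each of the 7 the exact two-sided permutation p was 0.1, the smallest that this design gives, or 0.143 adjusted over the 10 members. By CPM, whose totals include the immunoglobulin counts, the same number, 7 of 10 (70%), had groups that did not overlap, beside 49.8% of all genes tested.

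**Figure D2:**
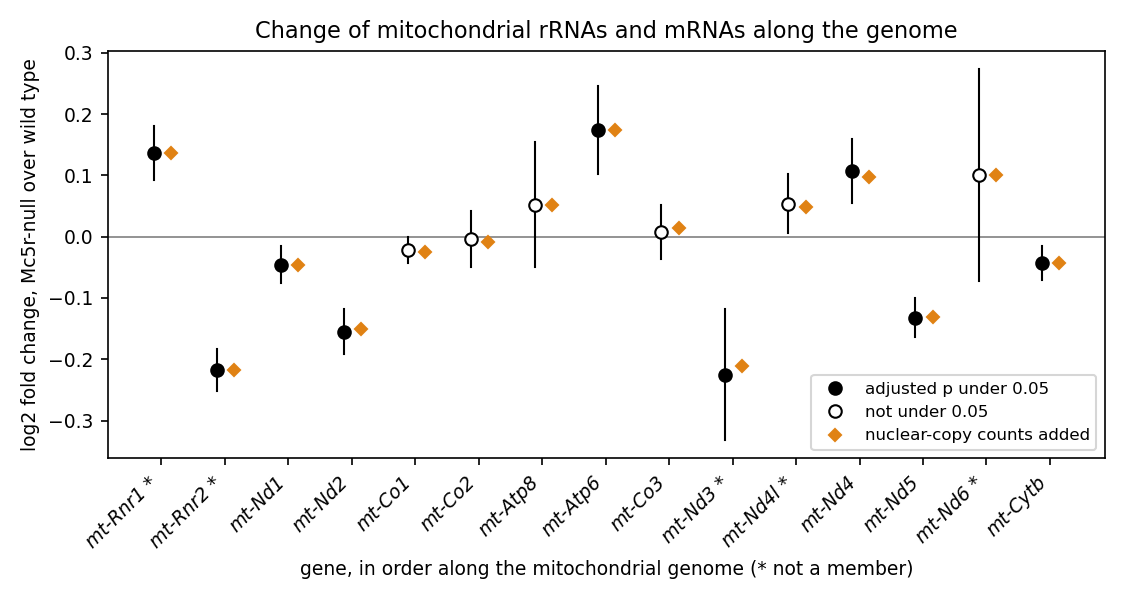
Log2 fold change, Mc5r-null over wild type, of the mitochondrial rRNAs and mRNAs that were tested, in order along the genome; circles are edgeR estimates with 95% intervals, filled where the adjusted p is under 0.05, and diamonds are estimates after the counts of all 11 nuclear copies were added. Changes of both signs occur along the genome, with mt-Atp6 highest, and adding the copies moves no estimate across 0.

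The rest of the mitochondrial genome showed changes of the same mixed kind. The 2 rRNA genes stand side by side at the start of the transcript. mt-Rnr2, the large ribosomal RNA, had 494, 489 and 488 FPKM in the Mc5r-null libraries, against 586, 585 and 579.7 FPKM in wild type, and it fell by 0.22 ± 0.015 on the log2 scale (edgeR adjusted p = 1.63e-05). mt-Rnr1, the small one, had 354, 353 and 354 FPKM in the Mc5r-null libraries, against 331, 332 and 326 FPKM in wild type, and it rose by 0.14 ± 0.019 (edgeR adjusted p = 9.40e-04). The ratio of mt-Rnr2 to mt-Rnr1 was 1.38 ± 0.0087 in Mc5r-null and 1.77 ± 0.0099 in wild type (SD, n = 3 each; exact permutation p = 0.1, adjusted 0.125). Poly(A) selection keeps only the tailed part of these rRNAs, so their levels here are not those of mitochondrial ribosomes.

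Of the 3 protein-coding genes outside the members, mt-Nd3, a complex I subunit, fell by 0.22 ± 0.047 on the log2 scale (edgeR adjusted p = 0.00668), with 106, 108 and 103 CPM in the Mc5r-null libraries and 135, 125 and 120.1 CPM in wild type. mt-Nd4l, read from the same transcript as mt-Nd4, had a log2 fold change of 0.05 ± 0.021 (edgeR adjusted p = 0.0867). mt-Nd6, the one mRNA encoded on the minus strand, had 0.10 ± 0.075 (edgeR adjusted p = 0.352). Of 22 tRNA genes 5 could be tested. mt-Tl1, which lies between mt-Rnr2 and mt-Nd1, fell by 0.66 ± 0.092 on the log2 scale, with 131, 129 and 117 counts in the Mc5r-null libraries and 231, 202 and 217 in wild type (edgeR adjusted p = 9.06e-04). mt-Tw, which follows mt-Nd2, fell with 30, 32 and 23 counts in Mc5r-null and 45, 53 and 52 in wild type (edgeR adjusted p = 0.0174). That call was lost without Mc5r-null replicate 3 or wild-type replicate 2 (edgeR adjusted p = 0.0538 and 0.0516) and with DESeq2 (0.123). The tRNA genes mt-Tm, mt-Tk and mt-Tt were tested and did not pass, and the untested ones had at most 7 counts in any library. Fragments counted on genes this short may also be parts of uncut or partly cut transcripts, which was not tested.

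Annotated copies of mitochondrial sequence in the nuclear genome share sequence with 8 of the 10 members, mt-Atp8 at least through its overlap with mt-Atp6. A stretch of chromosome 1 (GRCm38 chr1:24611535-24616197, minus strand) holds 7 annotated pseudogenes in the same order as on MT, and with those on chromosomes 2 and 13 there are 11 that are at least 95% identical to a mitochondrial gene over at least 100 bases. Among annotated transcripts, the only ones compared, no such copy was found for mt-Nd1 and mt-Cytb. The bases of chromosome 1 between the copies of mt-Co2 and mt-Atp6 were thus not compared, and mt-Atp8 lies between those genes on MT. Gm10925, the chromosome 1 copy of mt-Atp6, is identical to it over bases 1 to 678 of 681, and Gm28439, Gm28437 and Gm28661 are identical to mt-Nd4, mt-Co3 and mt-Co2 over 876, 783 and 681 bases. The first 60 bases of mt-Atp6 and of its copy are shown, since no difference between them could assign a read. Below them is a stretch of mt-Co1 with Gm13340, a chromosome 2 copy that differs from mt-Co1 at 37 of 1545 bases, and capitals mark the bases that differ between that pair.
mt-Atp6, MT:7927-7986, plus strand: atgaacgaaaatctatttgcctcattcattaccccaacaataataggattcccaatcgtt
Gm10925, chr1:24614592-24614651, minus strand: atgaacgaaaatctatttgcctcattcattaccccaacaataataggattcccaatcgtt
mt-Co1, MT:5787-5846, plus strand: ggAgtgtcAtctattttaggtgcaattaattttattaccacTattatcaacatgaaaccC
Gm13340, chr2:22589129-22589188, minus strand: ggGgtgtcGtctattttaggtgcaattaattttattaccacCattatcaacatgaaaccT

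The copies held sizeable counts, and the division of counts between gene and copy followed the replicate number in both genotypes. Of the counts of mt-Atp6 and Gm10925 together, the copy held 16.4%, 18.2% and 21.2% in Mc5r-null replicates 1, 2 and 3 and 16.3%, 18.2% and 21.4% in wild-type replicates 1, 2 and 3. For mt-Co2 and Gm28661 it held 18.7%, 19.7% and 22.1% in Mc5r-null and 19.0%, 20.2% and 22.01% in wild type. All 8 copies with at least 100 counts in every library were highest in replicate 3 and lowest in replicate 1 in both genotypes. Genotype did not separate these shares (exact two-sided permutation p from 0.6 to 1), and all copies together held 0.263% of counts in each genotype. Among the copies with fewer counts, Gm13339, a chromosome 2 copy of mt-Nd2, was called higher in Mc5r-null (edgeR adjusted p = 0.0343). It had 84, 86 and 98 counts in Mc5r-null and 74, 69 and 79 in wild type. Gm13341 and Gm4076 were not called (edgeR adjusted p = 0.826 and 0.920).

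mt-Nd4, mt-Co2, mt-Co3, mt-Atp6 and mt-Atp8, whose FPKM values stand above, showed the opposite pattern, with replicate 1 highest and replicate 3 lowest in both genotypes. Adding the chromosome 1 copies narrowed the spread between libraries for mt-Nd4, mt-Co2, mt-Co3 and mt-Atp6, but widened it for mt-Nd4l, from 1.59% to 1.88% in Mc5r-null and from 0.483% to 1.98% in wild type. For mt-Atp6 the coefficient of variation of CPM was 2.27% in Mc5r-null and 3.41% in wild type before, and 0.801% in Mc5r-null and 0.285% in wild type after. For mt-Co2 it was 1.91% in Mc5r-null and 1.78% in wild type before, and 0.287% and 0.467% after. mt-Nd1 and mt-Cytb, for which no copy was found, varied by at most 1.12% in either genotype as deposited.

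The genotype difference of the members was nearly the same once the copies were added, though mt-Atp8, mt-Nd1 and mt-Cytb had no copy counts to add. mt-Atp6 rose by 0.17 ± 0.0093 on the log2 scale (edgeR adjusted p = 2.90e-06) and mt-Nd4 by 0.10 ± 0.012 (edgeR adjusted p = 3.72e-04). mt-Co1 passed as lower, at -0.02 ± 0.0071 (edgeR adjusted p = 0.0303), which made 7 of 10 members called, beside 33% of genes in that fit. It passed in 3 of 18 alternatives, and adding the chromosome 1 copies alone was not among them. What sets the division of counts between gene and copy in each library was not tested.

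**Figure D3:**
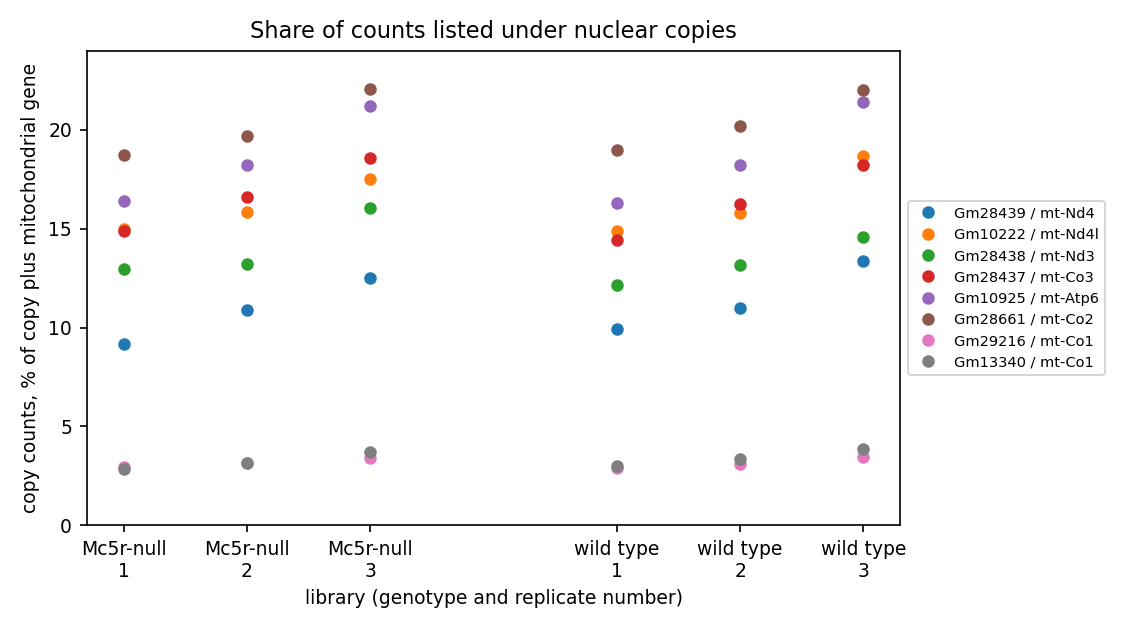
Counts listed under a nuclear copy as a percent of copy plus mitochondrial gene, for the 8 copies with at least 100 counts per library, in Mc5r-null replicates 1 to 3 (left) and wild-type replicates 1 to 3 (right). Each copy takes its highest share in replicate 3 and its lowest in replicate 1 in both genotypes, as with Gm10925 at 16.4% to 21.2% in Mc5r-null and 16.3% to 21.4% in wild type.

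The nuclear genes for the same complexes moved mostly one way. Of 79 tested nuclear subunits of complexes I to V and cytochrome c, 49 fell (62.0%) and none rose in edgeR, with none higher at an unadjusted p under 0.05 either, whereas 16.1% of all genes tested fell. DESeq2 called 34 lower and 1 higher, Cox7a2l. Their summed level was 7616 to 7663 CPM in the Mc5r-null libraries and 8776 to 8930 CPM in wild type, with no overlap. Their median log2 fold change was -0.20, against -0.01 for the 10 mitochondrial members and -0.0047 for all genes tested.

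In complex III, mt-Cytb changed by -2.93% while all 9 nuclear subunits fell, with a median of -0.30. Uqcr10, a small structural subunit, fell to 37.2 ± 2.73 CPM in Mc5r-null, against 61.8 ± 3.25 CPM in wild type (SD, n = 3 each; edgeR adjusted p = 1.13e-04). Uqcrq, another small subunit, had 60.3 ± 0.395 CPM in Mc5r-null and 82.1 ± 3.12 CPM in wild type, and Uqcrc1, a core subunit, 237 ± 6.34 and 305 ± 14.3 CPM (edgeR adjusted p = 1.19e-04 and 3.04e-04).

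In complex V, where mt-Atp6 rose, 11 of 17 nuclear subunits fell and none rose, with a median of -0.21. Atp5o, part of the stalk, fell to 95.5 ± 6.38 CPM in Mc5r-null, against 137 ± 5.04 CPM in wild type (edgeR adjusted p = 1.94e-04). Atp5a1, the alpha subunit of the catalytic head, had 791 ± 4.12 CPM in Mc5r-null and 912 ± 24.5 CPM in wild type, and Atp5g3, which encodes the c ring, 208 ± 2.96 and 243 ± 3.88 CPM (edgeR adjusted p = 3.82e-04 and 4.54e-04).

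In complex I, 21 of 36 nuclear subunits fell and none rose, with a median of -0.20, beside 3 mitochondrial members that fell and 1 that rose. DESeq2 called 11 of these nuclear subunits lower. The accessory subunits Ndufb8, Ndufb7 and Ndufb9 had log2 fold changes of -0.48, -0.35 and -0.35 (edgeR adjusted p from 8.40e-05 to 6.68e-04). In complex IV, whose 3 members did not pass, 5 of 13 nuclear genes fell, with a median of -0.18. Cox6b1 had a log2 fold change of -0.35, Cox6a1 of -0.20 and Cycs, the electron carrier cytochrome c, of -0.34 (edgeR adjusted p from 7.88e-05 to 0.00199).

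Complex II, which has no mitochondrial gene, had 3 of 4 subunits lower in edgeR, against 1, Sdhd, in DESeq2 and 2, Sdhd and Sdhb, in limma-voom. Sdhd, a membrane anchor, fell by 0.26 on the log2 scale (edgeR adjusted p = 0.0146, and 0.0530 without wild-type replicate 1). The calls of Sdhb and Sdha were weaker (edgeR adjusted p = 0.0282 and 0.0475) and were lost without Mc5r-null replicate 1 (0.0752 and 0.125), without Mc5r-null replicate 3 (0.0867 and 0.114) or without wild-type replicate 3 (0.0771 and 0.116). Sdhb was also lost without wild-type replicate 2 (0.0873), and Sdha without Mc5r-null replicate 2 (0.0544) or wild-type replicate 1 (0.110). Sdha was lost as well with RLE scaling (0.0584), without immunoglobulin genes (0.0749) and with DESeq2 (0.457), among other alternatives. No test was run of the difference between nuclear and mitochondrial subunits, and each set is given by its own counts.

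**Figure D4:**
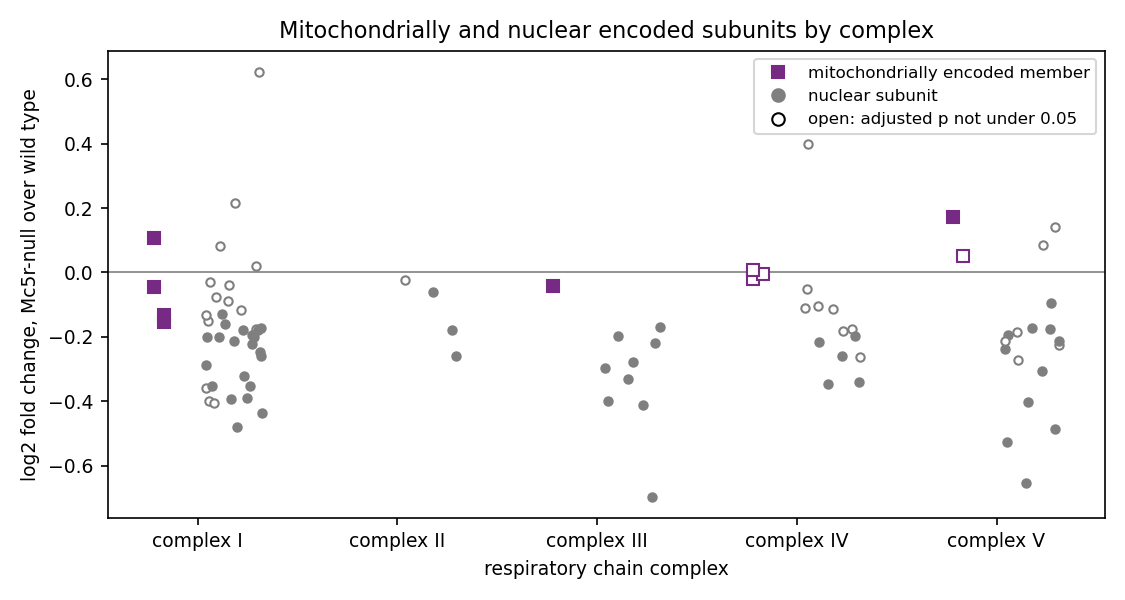
Log2 fold change, Mc5r-null over wild type, of mitochondrially encoded members (squares) and nuclear subunits (circles, with cytochrome c under complex IV) by respiratory chain complex; filled symbols have an edgeR adjusted p under 0.05. The members lie between -0.15 and 0.17. The nuclear subunits have medians by complex from -0.12 to -0.30, and single ones run from -0.70 (Uqcr10) to 0.62 (Ndufs3, not called).

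Genes that act on mitochondrial RNA changed little as a list. Of 32 tested genes for its transcription, processing, modification, tailing and decay, 6 fell and none rose in edgeR (3 were higher at an unadjusted p under 0.05; DESeq2 called none higher and limma-voom 1, Mrm1), and the median log2 fold change was -0.05. The 6 are 18.75% of the list, beside 16.1% of all genes tested that fell, and DESeq2 called 4 lower. Lrpprc, which stabilises mitochondrial mRNAs and promotes their tailing, fell to 83.2 ± 1.37 CPM in Mc5r-null, against 104 ± 1.66 CPM in wild type (SD, n = 3 each; edgeR adjusted p = 3.09e-04). Fastkd2, which is known to be needed for the large mitochondrial rRNA, fell to 18.6 ± 0.366 CPM in Mc5r-null, against 25.3 ± 1.06 CPM in wild type (edgeR adjusted p = 0.00177). Pnpt1, a nuclease of mitochondrial RNA decay, had 47.9 ± 1.42 CPM in Mc5r-null and 58.7 ± 1.81 CPM in wild type (edgeR adjusted p = 0.00324).

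Of 18 genes for the upkeep of mitochondrial DNA, 3 rose and 1 fell, or 22.2% called, beside 32.9% of all genes tested, and DESeq2 called 1 higher and 1 lower. Slc25a36, a carrier of pyrimidine nucleotides, rose to 62.5 ± 1.59 CPM in Mc5r-null, against 49.5 ± 0.682 CPM in wild type (edgeR adjusted p = 2.27e-04), and Endog, a mitochondrial nuclease, fell by 0.61 on the log2 scale (edgeR adjusted p = 0.0143). Twnk, the mitochondrial helicase, rose by 0.17 (edgeR adjusted p = 0.0390), and this call was kept in leave-one-out fits only without Mc5r-null replicate 3 (adjusted p 0.0620 to 0.127 in the others).

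Of 16 tested regulators of mitochondrial biogenesis, 3 rose and 1 fell, or 25.0% called, beside 32.9% of all genes tested. Sirt3, a mitochondrial deacetylase, rose to 69.3 ± 2.89 CPM in Mc5r-null, against 58.0 ± 0.863 CPM in wild type (edgeR adjusted p = 0.00114). Gabpb1, a subunit of the GABP transcription factor, rose by 0.25 on the log2 scale (edgeR adjusted p = 0.0264), a call lost without Mc5r-null replicate 1 or 3 or wild-type replicate 1 (0.0861, 0.0792 and 0.0551). Sirt1, a nuclear deacetylase, fell by 0.36 (edgeR adjusted p = 0.0279), a call lost without any 1 wild-type replicate (0.0714, 0.0815 and 0.0787).

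Of 22 genes for abundant mitochondrial proteins outside the chain, listed as proxies of mitochondrial mass, 14 fell and none rose in edgeR. Their median log2 fold change was -0.14, and 1 was higher at an unadjusted edgeR p under 0.05. DESeq2 and limma-voom called none higher. These are RNA levels, and neither protein nor mitochondrial mass was measured here. The 14 are 63.6% of the list, beside 16.1% of all genes tested that fell, and DESeq2 called 8 lower. Slc25a5, the ADP/ATP carrier, fell to 551 ± 6.02 CPM in Mc5r-null, against 722 ± 5.28 CPM in wild type (edgeR adjusted p = 1.04e-06). The import receptors Tomm20 and Tomm70a had log2 fold changes of -0.35 and -0.20 (edgeR adjusted p = 3.06e-04 and 5.01e-04). Of 18 tested mitophagy genes 4 rose and 1 fell, or 27.8% called, beside 32.9% of all genes tested, and DESeq2 called 3 higher and none lower. Their median log2 fold change was 0.03. Pink1, the kinase that marks damaged mitochondria, rose to 132 ± 4.01 CPM in Mc5r-null, against 97.6 ± 3.81 CPM in wild type, and Gabarapl1 and Ulk1, which act in autophagosome formation, rose by 0.45 and 0.31 on the log2 scale (edgeR adjusted p from 5.10e-05 to 0.00296).

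Markers of most listed cell types moved with genotype as well. The share of tested markers called ran from 33.3% for T cells to 100% for neutrophils and promyelocytes. Of all genes tested 32.9% were called (16.8% higher and 16.1% lower), which is near the share of the T cell list. Of 13 LSK markers 9 rose and 1 fell, with summed levels of 2400 to 2506 CPM in Mc5r-null and 1935 to 1965 CPM in wild type. Of 10 neutrophil and promyelocyte markers 9 fell and 1 rose, with sums of 11162 to 11519 CPM in Mc5r-null and 17211 to 18199 CPM in wild type. Of 10 plasma cell markers outside the immunoglobulins 9 rose, with sums of 3393 to 6397 CPM in Mc5r-null and 2197 to 2236 CPM in wild type. Of 9 tested erythroid markers 8 rose, with sums of 173 to 174 CPM in Mc5r-null and 27.7 to 29.1 CPM in wild type.

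Of 6 basophil and mast cell markers 5 fell, with sums of 189 to 245 CPM in Mc5r-null and 388 to 424 CPM in wild type. Of 6 endothelial markers 4 rose, with sums of 115 to 124 CPM in Mc5r-null and 105 to 111 CPM in wild type. Of 4 tested macrophage markers 1 rose and 2 fell, with sums over the 7 listed of 33.0 to 37.6 CPM in Mc5r-null and 39.3 to 41.7 CPM in wild type, and of 3 tested T cell markers 1 rose, with sums over the 6 listed of 8.87 to 10.1 CPM in Mc5r-null and 5.75 to 7.25 CPM in wild type. None of these markers was at 0 in all libraries. Their part in the changes of the members was not tested, and in bulk RNA fewer cells of a type and less RNA per cell cannot be told apart.

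Across the 6 libraries, the genes whose log2 CPM was most like that of the summed members, among the 6371 genes whose mean log2 CPM reached 5, were Kdm2b (Pearson r = 0.988), Gpcpd1 (0.962) and Mob1b (0.961). Like mt-Nd4, mt-Co2, mt-Co3, mt-Atp6 and mt-Atp8, each was highest in replicate 1 and lowest in replicate 3 in both genotypes, and none differed between genotypes (edgeR adjusted p = 0.988, 0.834 and 0.570). These genes were picked for that likeness, so the shared replicate order and the small genotype difference come with the choice. The points share library and depth, so these values are a description.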

How the data were processed

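Poly(A)-selected, stranded libraries of LSK RNA were sequenced on an Illumina NovaSeq, per the labels' protocols. The authors deposited 1 table with whole-number counts per gene, unnormalized, and FPKM values beside them, per the file headers. On the mitochondrial genes the deposited FPKM equalled the count divided by gene length and library total, up to a constant, to within a relative error of 4.46e-04. CASAVA 1.8, HISAT2, StringTie and edgeR and the build GRCm38 are named without roles, per the submitters' processing notes. The counter, its strand setting and its handling of reads with several matches are not given in the sources used here. GENCODE release M21 (GRCm38) held 55141 of the gene IDs, 99.4% of them at the same locus, and sequences were read from its transcripts. Copies were found with blastn 2.17.0 among the annotated transcripts of that release.

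Counts were tested in R 4.3.3 with edgeR 4.0.16 (filterByExpr with minimum count 10 and minimum total 15, TMM scaling, robust quasi-likelihood F-test, Benjamini-Hochberg adjustment over all genes tested, called under 0.05). CPM divides counts by the library total. With 13983016 to 14953169 counts per library, the variance of CPM between Mc5r-null libraries ran from 0.961 times that of counting alone for mt-Nd1 to 24.6 times for mt-Atp8, and between wild-type libraries from 0.134 times for mt-Cytb to 47.8 times for mt-Atp6. Within each genotype, 15.0% to 15.7% of genes differed between replicates at p under 0.05 in a test of their counts, where counting noise alone gives 5%. All 6 libraries were kept as separate, but this spread does not show that they came from separate mice. Samples with the same replicate number did not deviate together over all genes (correlations of -1.22e-04, -0.0300 and -0.0270 over 15257 genes), and the main fit has no block. Those values say nothing about single genes. mt-Nd4, mt-Co2, mt-Co3, mt-Atp6 and mt-Atp8 followed the replicate number in both genotypes. The fit was checked on simulated counts with planted changes larger than that of any member. It was not checked on changes as small as theirs. Alternatives were other scalings, filters and thresholds, DESeq2 1.42.0, limma-voom (limma 3.58.1), fits without immunoglobulin genes, the replicate block and each library left out. Adding the nuclear copies was chosen after seeing the data.

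The members, lists and tests were chosen with earlier results of these data known. Named were all members, the other tested mitochondrial genes, the chromosome 1 copies with counts, the 3 genes of each mitochondrial list with the smallest p, Mc5r, and the 3 genes most like the summed members. Kit, Cox7a2l, Mrm1 and the copies on chromosomes 2 and 13 were named after their values were seen.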

Additional observations from a re-analysis of the deposited data

How the results depend on the processing

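Of 18 alternatives, mt-Atp6, mt-Nd2 and mt-Nd5 were called in 18, mt-Nd4 in 17, mt-Cytb in 13, mt-Nd1 in 11 and mt-Co1 in 3, while mt-Atp8, mt-Co2 and mt-Co3 were called in 0. Members called higher numbered 2 as reported, 1 with DESeq2 and 0 with a 1.2-fold minimum. Members called lower numbered 4 as reported, 2 without immunoglobulin genes, 2 with DESeq2, 2 at an adjusted p under 0.01 and 0 with a 1.2-fold minimum, and 2 to 4 with 1 library left out, the 2 coming without Mc5r-null replicate 1 or 2. Nuclear subunits called higher numbered 1 with DESeq2 and 0 to 1 with 1 library left out, against 0, and those called lower 21 with a 1.2-fold minimum, against 49, and 41 to 44 with 1 library left out. The ratio of member shares of all counts was 1.03 without immunoglobulin genes, against 0.979. The log2 fold change of mt-Co2 was 0.0031 without immunoglobulin genes and ran from -0.0225 to 0.0138 with 1 library left out. That of mt-Co3 was -0.0260 with library totals alone and ran from -0.0102 to 0.0205 with 1 library left out. Differences in share of member counts turned for mt-Co2 (-0.0985 to 0.0228 percentage points) and mt-Co3 (-0.0225 to 0.0675) with 1 library left out. Library totals alone moved the median of all genes to -0.04, from -0.0047. The causes were not tested.

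The replicate block gave 2 members higher and 3 lower, with mt-Nd1 lost (edgeR adjusted p = 0.0599), 46 nuclear subunits lower, and 4402 genes called in all, against 5023. Equal numbers do not pair the libraries over all genes, although the counts of nuclear copies and of some members follow them. With the block the standard error of the log2 fold change was 0.012 for mt-Atp6, against 0.030 in the main fit. For mt-Nd2 it was 0.018 with the block, against 0.016. The limits are 3 libraries per genotype, unknown numbers of mice, and reads that identical nuclear copies share with members.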
